A study of Mus musculus with 14 samples.

Results

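The p53 pathway was followed through 38 genes, out of 53700 genes in the deposited tables: the tumour suppressor p53 itself (Trp53), its regulators and genes known as its transcriptional targets. They were taken by gene symbol from the annotated gene table and joined by gene ID to the counts of 14 RNA libraries. The libraries were made from adult NSPCs (mouse neural stem and progenitor cells, which can renew themselves or form neurons and glia) of strain C57BL/6. In 1 table, 3 libraries came from NSPCs given an adeno-associated virus that carries GFP (GFP control) and 3 from NSPCs given one that carries Cre-GFP (Yme1l KO), both kept in FGF and EGF. The other table held 4 libraries of proliferating NSPCs grown with FGF and EGF and 4 of quiescent NSPCs treated with BMP4, none of them given a virus. The labels of the KO libraries, like all others, name a wild-type mouse, and they do not give the age in days, the time after virus or BMP4, or say whether replicates came from different animals or dishes. Each p-value here reflects only how far these libraries scatter, and that scatter may be technical. Only KO cells received Cre, so loss of Yme1l and the presence of Cre cannot be told apart.

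p53 is a transcription factor that is kept low by the ubiquitin ligase Mdm2 and its partner Mdm4, and that is held back from degradation when cells meet DNA damage, nucleolar stress or other insults. Its control is largely at the level of the protein, so its mRNA is not a measure of its activity. Its targets include Cdkn1a, which encodes the cell cycle inhibitor p21, apoptosis genes such as Bax, Bbc3 (Puma) and Pmaip1 (Noxa), DNA repair genes, and Mdm2 itself, which closes a negative feedback loop. In neural stem cells p53 and p21 are known for restraining self-renewal and proliferation.

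The libraries held 9226080 to 10320736 counts in the GFP control, 9053124 to 9490756 in the KO, 8331999 to 8992709 in proliferating and 6475099 to 8797750 in quiescent cells. Levels are given in CPM, counts scaled to a common library size after TMM normalization. Yme1l1, the targeted gene, stood at 127 ± 7.73 CPM (SD, n = 3) in the GFP control and 24.6 ± 1.65 CPM (SD, n = 3) in the KO, a log2 fold change of -2.36 (SE 0.071, adjusted p = 5.89e-11). In the other table Yme1l1 had 3.49 ± 1.09 CPM (SD, n = 4) in proliferating cells. It had 6.15 ± 3.29 CPM (SD, n = 4) in quiescent cells, with overlapping groups (0.85, SE 0.35, adjusted p = 0.0472). Both means lay below that of the KO, and why the tables differ was not tested. Neural stem cell markers summed to 7122 to 7281 CPM in the GFP control, 6366 to 6641 CPM in the KO and 6460.1 to 7080.1 CPM in the other table, while the microglial markers Cx3cr1, C1qa and Ptprc had no count in any group. Neuroblast and neuron markers differed more between the tables. They summed to 1177.4 to 1278.1 CPM in the GFP control and 1239.5 to 1295.6 CPM in the KO. In proliferating cells their sum was 53.78 to 78.33 CPM, and in quiescent cells 53.03 to 107.8 CPM. Astrocyte markers summed to 674 to 689.6 CPM in the GFP control and 783 to 883 CPM in the KO. They summed to 3529 to 3629.5 CPM in proliferating and 4378 to 4812 CPM in quiescent cells. Each of the 7 markers had counts in every group. Of those tested, 4 of 5 rose and 1 fell in the KO, where 25.4% of all genes tested rose and 26.2% fell. In quiescent cells 4 of 6 rose and 1 fell, against 29.9% and 35.5% of all genes tested. The marker that fell was not the same in the comparisons, and each rose in the other. The part of astrocyte-like cells in the results below was not tested. KO replicate 3 and quiescent replicate 2 stood apart from the other libraries of their groups, and counts of calls and several single genes are also given without them.

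Of the 38 genes, 36 were expressed highly enough to be tested in the KO comparison. Of these, 33 were called, where 51.6% of all 12625 genes tested were. Members higher in the KO numbered 31 (86.1%) at an adjusted p under 0.05, against 25.4% of all genes tested. Trp53 and Tigar were lower, 2 of 36 (5.56%) against 26.2% of all genes tested. Plk3, Ppm1d and Rps27l were not called. The median log2 fold change of the 36 genes was 0.65, beside 0.0023 over all genes tested. In bulk RNA a change in the level per cell and a change in the share of cells that carry the transcript cannot be told apart. In 31 of the 36 genes every KO library lay above every GFP library, against 30.3% of all genes tested. Every KO library lay below in Trp53, Tigar, Plk3 and Rps27l, 4 of 36, against 31.1% of all genes tested. The groups overlapped only in Ppm1d. At least 2-fold rises were seen in 12 of 36 genes, against 3.16% of all genes tested, and no member fell by that much, where 5.23% of all genes passed in either direction. Perp and Gls2 were too low to be tested, with at most 0.322 and 0.858 CPM in any library of this table. None of the other members depended on a single group to pass the filter on low counts: the lowest value of a tested gene in any library was 2.58 CPM, for Fas.

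**Figure D1:**
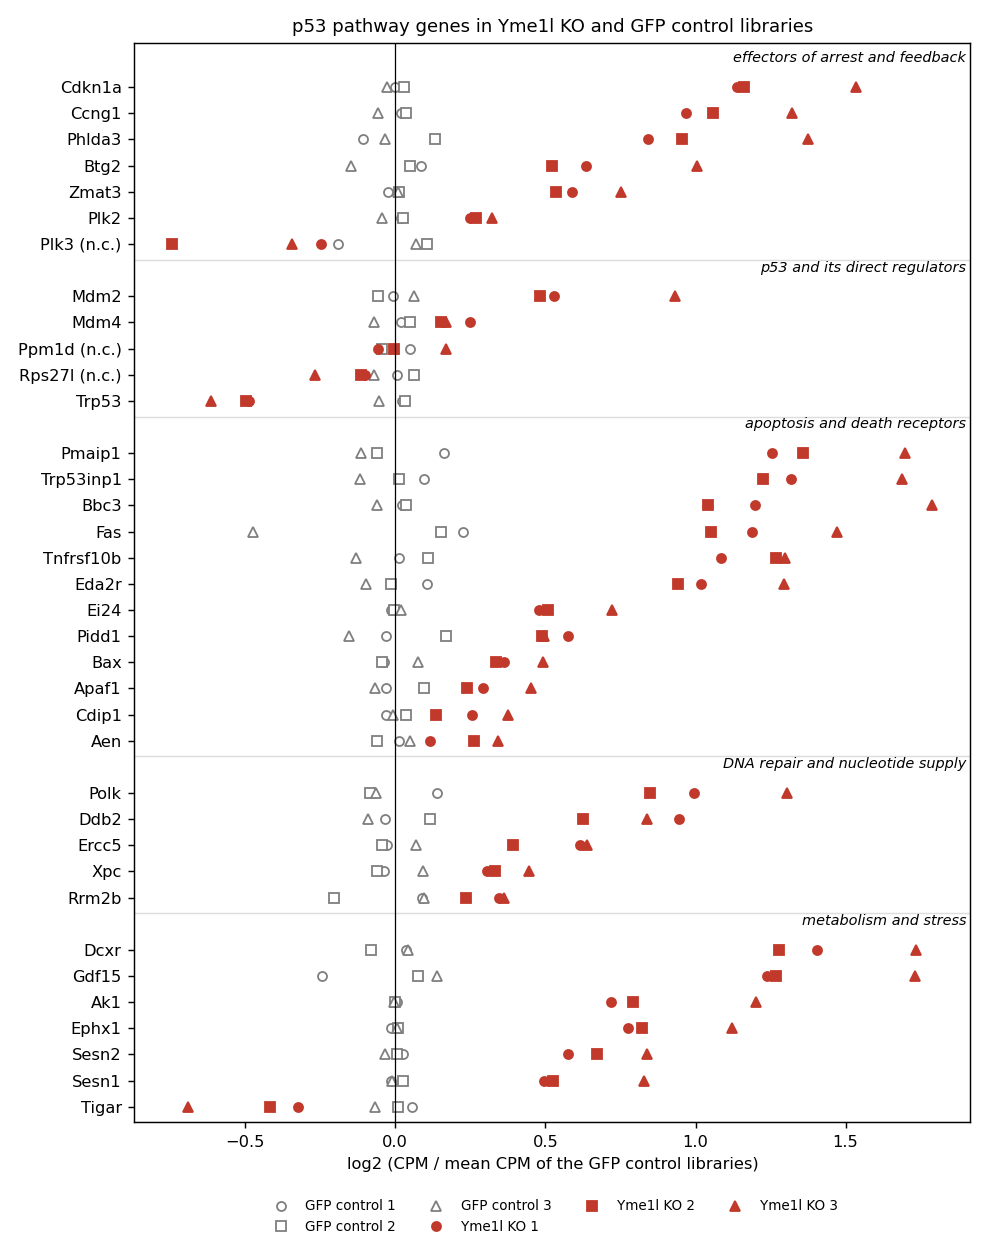
Level of each tested p53 pathway gene in the 3 GFP control (open grey) and 3 Yme1l KO (red) libraries, as log2 of its CPM over the mean of the GFP control, in blocks by role (n.c.: not called). The red points lie right of the grey ones in 31 rows, and KO replicate 3 (triangles) is the rightmost in 28 of them.

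KO replicate 3 was the highest KO library in 28 of the 31 rising genes (90.3%), as in 75.3% of all 3201 genes called higher. The median log2 ratio of the 36 genes to the GFP mean was 0.58 in KO replicate 1, 0.52 in replicate 2 and 0.79 in replicate 3. Without replicate 3 the same number of genes was called, 31 higher and 2 lower, with a median log2 fold change of 0.55 and 9 rises of at least 2-fold. Over all 12816 genes tested in that fit, 3104 were higher, 309 of them at least 2-fold, and 3284 lower. Phlda3 (0.91), Eda2r (0.99) and Polk (0.93) then rose by less than 2-fold.

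Among the effectors of arrest and feedback, 6 of 7 rose. Cdkn1a (ENSMUSG00000023067, chromosome 17, 29309950 to 29319701 in GRCm39), the gene of p21, measured 293, 299 and 288 CPM in the GFP control libraries and 646, 656 and 849 CPM in the KO libraries. The groups did not overlap, with a rise of 1.29 (SE 0.10, adjusted p = 2.82e-05) on the log2 scale, or 2.45-fold. Without KO replicate 3 it was 1.16 (SE 0.033, adjusted p = 7.31e-43). In that fit of 5 libraries the median prior degrees of freedom, the weight given to the spread shared by all genes, was 68.5 against 10.5 with all 6, so its p-values rest largely on the other genes' spread. Ccng1, which encodes cyclin G, a partner of the phosphatase that acts on Mdm2, measured 291, 294 and 276 CPM in the GFP control and 561, 597 and 717 CPM in the KO. Its values also separated completely, with a log2 fold change of 1.13 (SE 0.082, adjusted p = 3.23e-06). Phlda3, a repressor of Akt signalling, went from 54.6 ± 4.73 CPM (SD, n = 3) to 115 ± 23.4 CPM (SD, n = 3), a log2 fold change of 1.08 (SE 0.16, adjusted p = 0.00136). The antiproliferative gene Btg2 stood at 23.4, 22.7 and 19.9 CPM in the GFP control and 34.1, 31.6 and 44.1 CPM in the KO (0.74, adjusted p = 0.000266). Zmat3, an RNA-binding zinc finger protein, rose by 0.63 (SE 0.059) on the log2 scale and the polo-like kinase gene Plk2 by 0.29 (SE 0.047). All 3 KO libraries of both genes were above all controls. Plk3, another polo-like kinase gene, had 5.51, 6.76 and 6.59 CPM in the GFP control and 5.30, 3.76 and 4.95 CPM in the KO, with no overlap but without reaching the threshold (-0.42, SE 0.19, adjusted p = 0.0737).

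p53's own transcript moved the other way. Trp53 (ENSMUSG00000059552, chromosome 11, 69471185 to 69482699) measured 107, 108 and 101 CPM in the GFP control and 75.2, 74.7 and 68.8 CPM in the KO. Each KO library was below each control, at -0.53 (SE 0.057, adjusted p = 6.16e-06) on the log2 scale. Mdm2, the ubiquitin ligase that is both target and inhibitor of p53, had 79.1, 76.4 and 83.0 CPM in the GFP control and 115, 111 and 152 CPM in the KO. It was higher in all 3 KO libraries, at 0.66 (SE 0.12, adjusted p = 0.00226). Its partner Mdm4 rose by less, from 144 ± 6.14 CPM (SD, n = 3) to 164 ± 5.88 CPM (SD, n = 3), a log2 fold change of 0.19 (SE 0.052, adjusted p = 0.00574), and was not called when all 14 libraries were fitted together (0.16, adjusted p = 0.495). Ppm1d, a phosphatase that switches p53 signalling off, had 29.7 to 31.7 CPM in the GFP control and 29.5 to 34.4 CPM in the KO, which overlap (0.042, SE 0.084, adjusted p = 0.703). Rps27l, a ribosomal protein gene that binds Mdm2, had 89.2, 92.7 and 84.6 CPM against 82.8, 82.1 and 73.8 CPM, just under the controls (-0.15, SE 0.062, adjusted p = 0.0517). It resembles the ribosomal protein gene Rps27, and whether reads were split between the genes was not tested.

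**Figure D2:**
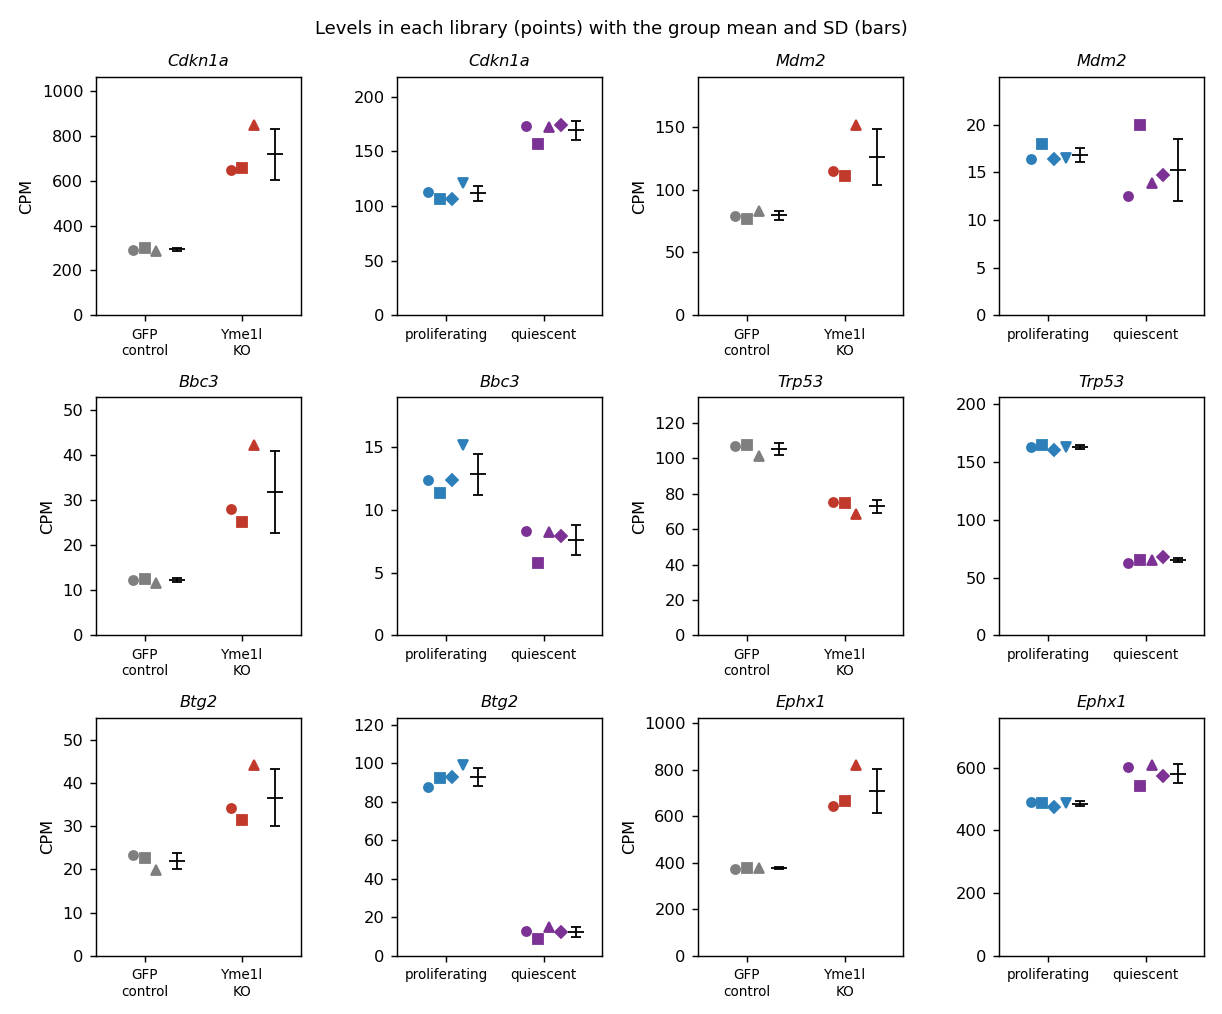
CPM of 6 p53 pathway genes in each library (points, shaped by replicate) with group mean and SD (bars); the left panel of each pair shows the virus-treated groups and the right panel proliferating and quiescent cells, each with its own axis from 0. Cdkn1a and Ephx1 are higher in KO and in quiescent cells, Bbc3 and Btg2 are higher in KO and lower in quiescent cells, and Trp53 is lower in both.

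All 12 tested genes of apoptosis and death receptors rose, and 6 of them at least 2-fold. Of these 6, Eda2r was under 2-fold without KO replicate 3 (0.99). Pmaip1, the BH3-only protein Noxa, measured 21.5, 18.5 and 17.8 CPM in the GFP control and 45.9, 49.4 and 62.4 CPM in the KO. This was a complete separation, with a log2 fold change of 1.45 (SE 0.12, adjusted p = 2.47e-06). Bbc3, the BH3-only protein Puma, measured 12.4, 12.6 and 11.7 CPM in the GFP control and 28.1, 25.2 and 42.3 CPM in the KO (1.38, SE 0.20, adjusted p = 0.000516). KO replicate 3 was well above the other KO libraries here, and without it the log2 value was 1.13 (SE 0.11, adjusted p = 4.45e-14), in the same fit of 5 libraries. Trp53inp1, a nuclear cofactor of p53 in stress, had 165, 155 and 142 CPM in the GFP control and 384, 360.0 and 497 CPM in the KO (1.43, SE 0.13, adjusted p = 0.00019). Its lowest KO library held more than the highest control. The pore-forming Bax rose from 119 ± 5.62 CPM (SD, n = 3) to 157 ± 9.24 CPM (SD, n = 3), a log2 fold change of 0.40 (SE 0.058). Apaf1, the core of the apoptosome, rose by 0.34 (SE 0.072) on the log2 scale.

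The 3 genes here that encode receptors of the tumour necrosis factor receptor family all rose. Their log2 fold changes were 1.26 (SE 0.20) for Fas, 1.23 (SE 0.10) for Tnfrsf10b, the mouse TRAIL receptor, and 1.10 (SE 0.092) for Eda2r, the ectodysplasin A2 receptor. Fas was the scarcest, with 4.18, 3.97 and 2.58 CPM in the GFP control and 8.16, 7.41 and 9.91 CPM in the KO. Eda2r was more abundant, with 90.3, 83.3 and 78.5 CPM against 170.3, 161 and 206 CPM, and neither gene's groups overlapped. Smaller rises were measured for Ei24, an endoplasmic reticulum protein (0.58, SE 0.061), for Pidd1, the scaffold of the PIDDosome (0.53, SE 0.094), for Cdip1 (0.26, SE 0.061) and for the nuclease gene Aen (0.25, SE 0.064). Their adjusted p-values ran from 5.09e-06 for Ei24 to 0.00483 for Aen. Cdip1 and Aen were not called with limma on log2(TPM + 1).

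All 5 genes of DNA repair and nucleotide supply rose. Polk, a polymerase that copies past damaged bases, had 12.5, 10.7 and 10.9 CPM in the GFP control and 22.7, 20.5 and 28.1 CPM in the KO, without overlap (1.06, SE 0.13, adjusted p = 1.59e-05). Ddb2, which recognises ultraviolet damage for nucleotide excision repair, was scarce and rose from 3.96 ± 0.295 CPM (SD, n = 3) to 6.95 ± 0.766 CPM (SD, n = 3), a log2 fold change of 0.81 (SE 0.18, adjusted p = 0.00155). Ercc5 and Xpc, which act in the same repair pathway, had log2 fold changes of 0.56 (SE 0.079) and 0.36 (SE 0.10). Rrm2b, the p53-inducible subunit of ribonucleotide reductase, had 25.0, 20.4 and 25.1 CPM against 29.9, 27.7 and 30.2 CPM. Its groups lay close together (0.32, SE 0.097, adjusted p = 0.0129), and it was not called with limma on log2(TPM + 1), with all 14 libraries in 1 fit, or without GFP replicate 2 (0.22).

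Of the 7 tested genes of metabolism and stress, 6 rose and 1 fell. Dcxr, a carbonyl and L-xylulose reductase, had the largest log2 fold change of all members, 1.49 (SE 0.12, adjusted p = 1.2e-06). Its libraries held 16.5, 15.2 and 16.6 CPM in the GFP control and 42.7, 39.1 and 53.7 CPM in the KO, so that the lowest KO value was above the highest control. Gdf15, a secreted stress cytokine that is also a target of the integrated stress response, measured 24.7, 30.8 and 32.2 CPM and 68.9, 70.3 and 97.0 CPM, also without overlap (1.43, SE 0.17, adjusted p = 0.000334). Ephx1, microsomal epoxide hydrolase, was the second most abundant member per length in the GFP control (436 TPM, after Rps27l at 499.8 TPM and ahead of Cdkn1a at 321 TPM). It rose from 376 ± 3.06 CPM (SD, n = 3) to 709 ± 95.4 CPM (SD, n = 3), a log2 fold change of 0.92 (SE 0.081, adjusted p = 9.56e-06). The adenylate kinase gene Ak1 had log2 fold change 0.92 (SE 0.13), and the sestrins Sesn1 and Sesn2, which restrain mTOR signalling, 0.63 (SE 0.088) and 0.70 (SE 0.063). Tigar, a phosphatase that lowers glycolytic flux, fell: 20.4, 19.7 and 18.7 CPM in the GFP control and 15.7, 14.7 and 12.2 CPM in the KO, every KO library below every control (-0.46, SE 0.11, adjusted p = 0.00346).

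The proximal promoters were read for the p53 half-site, the decamer that a pair of p53 molecules contacts, because these genes moved together. RefSeq sequences (GRCm38.p6, 250 bases upstream of the start) were matched by symbol for 29 of the 38 genes, and both strands were searched. Only exact matches to RRRCWWGYYY (R for A or G, W for A or T, Y for C or T) were counted. A half-site was found in 11 of the 29 (37.9%), against 8.20% of all 27025 genes in the table. Of the 11, 8 rose in the KO (Aen, Bax, Ccng1, Cdkn1a, Ei24, Mdm2, Polk and Sesn1), Trp53 fell, and Ppm1d and Rps27l were not called. Of the 18 without a half-site, 16 rose, so that rising genes were found on both sides. A match is a description of letters, not evidence of binding, and no match says only that the decamer is not in this window. The sequences below, 5′ to 3′ with half-sites in capitals, show the gene with the only pair of half-sites, 4 further rising genes and 2 genes that hold a half-site and did not rise.
Cdkn1a (chr17:29090729-29090978, plus strand): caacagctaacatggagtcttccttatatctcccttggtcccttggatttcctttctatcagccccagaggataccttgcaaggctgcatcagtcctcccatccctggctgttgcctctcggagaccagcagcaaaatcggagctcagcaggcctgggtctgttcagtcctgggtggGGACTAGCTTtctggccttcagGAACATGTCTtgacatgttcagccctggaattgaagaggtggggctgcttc
Ccng1 (chr11:40755442-40755491, minus strand): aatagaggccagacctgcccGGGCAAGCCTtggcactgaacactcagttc
Mdm2 (chr10:117710915-117710964, minus strand): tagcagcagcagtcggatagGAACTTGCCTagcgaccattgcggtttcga
Bax (chr7:45467070-45467119, minus strand): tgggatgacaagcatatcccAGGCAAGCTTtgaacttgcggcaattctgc
Sesn1 (chr10:41887246-41887295, plus strand): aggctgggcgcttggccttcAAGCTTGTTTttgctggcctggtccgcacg
Trp53 (chr11:69580264-69580313, plus strand): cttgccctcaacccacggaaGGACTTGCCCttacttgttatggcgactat
Ppm1d (chr11:85311102-85311151, plus strand): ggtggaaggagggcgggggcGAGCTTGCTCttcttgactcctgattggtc

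In the Cdkn1a window the half-sites begin 73 and 51 bases upstream of the start and are 12 bases apart. The decamer tgacatgttc, directly after the half-site nearer the start, departs from the pattern only in its first base and was not counted. Such a pair was held by 18 genes (0.0666% of the table), with at most 13 bases between the half-sites. The window belongs to the start of transcript Cdkn1a-202, and the start of Cdkn1a-201 lies 2790 bases downstream of it. Cdkn1a-201 carried most of the gene's estimated counts, 92.3% ± 1.63 (SD, n = 3) in the GFP control and 92.6% ± 1.09 (SD, n = 3) in the KO.

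In quiescent against proliferating cells, 34 of the 38 genes were tested, and they split in both directions. Of these, 18 were called, where 65.4% of all 12245 genes tested were. The 18 comprise 7 (20.6%) that were higher in quiescent cells, against 29.9% of all genes tested, and 11 (32.4%) that were lower, against 35.5%. Both shares lie near the background, and the median log2 fold change was -0.020, beside -0.014 over all genes tested. Without quiescent replicate 2, 11 were higher and 10 lower, while over all 12350 genes tested 4086 were higher and 3916 lower. With library size alone as the scaling, which moved the median of all genes to -0.15, 6 were higher and 17 lower. Over all genes that scaling gave 2823 higher and 5219 lower. With the GC trend of each library removed 11 members were higher and 11 lower, beside 4031 and 4058 over all genes. Every quiescent library lay above every proliferating one in 6 of the 34 genes (17.6%), against 26.0% of all genes tested, and below in 11 (32.4%), against 33.7%. Calls with a fold of at least 2 numbered 9 of 34 (26.5%), against 20.7% of all genes tested. Pmaip1, Polk, Gdf15 and Perp were too low to be tested in this table. Gdf15 had 1 count over the 4 proliferating libraries and none over the 4 quiescent ones.

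**Figure D3:**
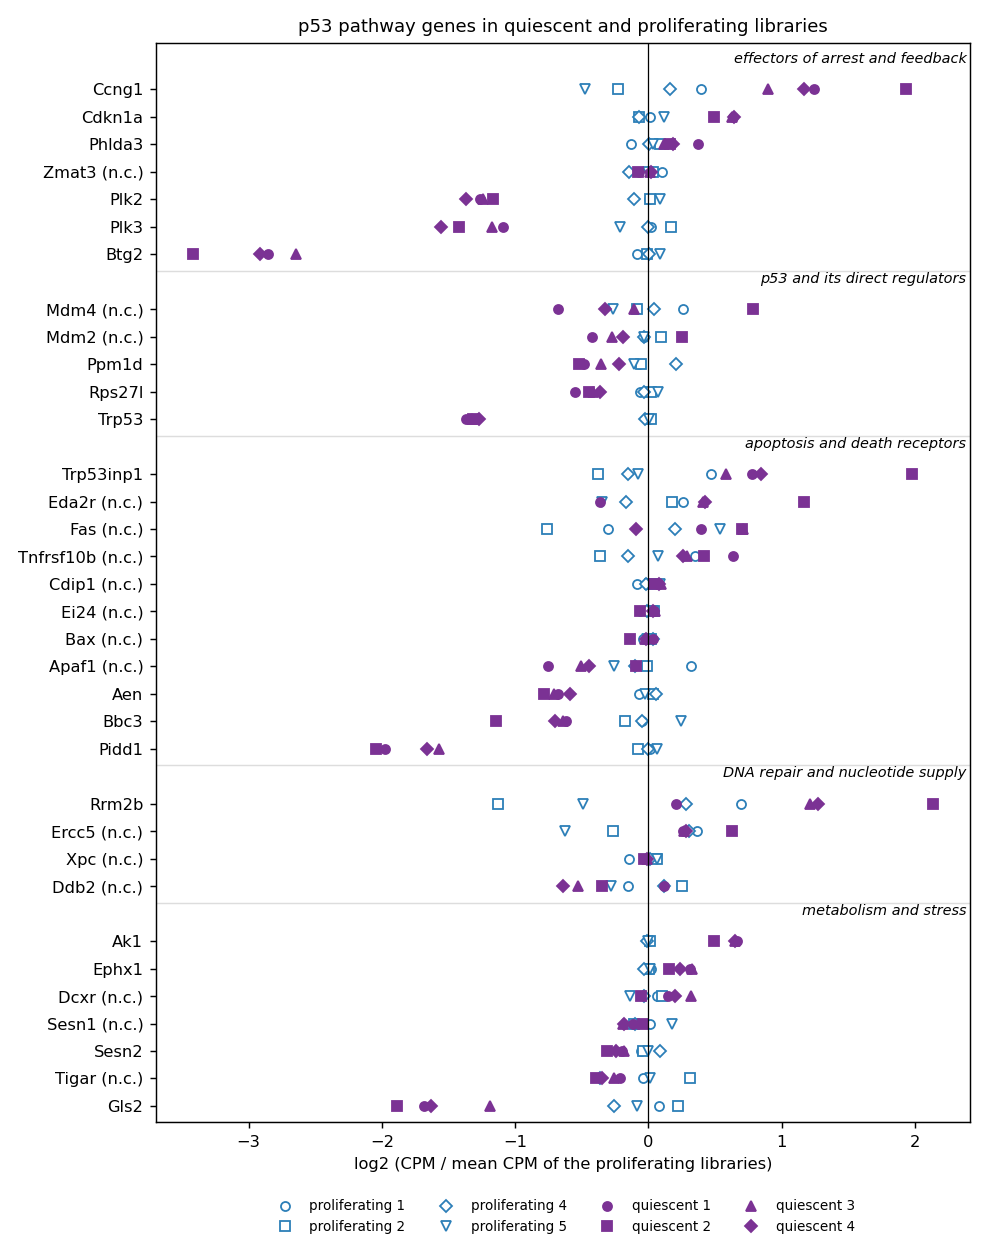
Level of each tested p53 pathway gene in the 4 proliferating (open blue) and 4 quiescent (purple) libraries, as log2 of its CPM over the mean of the proliferating libraries, in blocks by role (n.c.: not called). Btg2 and Pidd1 lie farthest left, and quiescent replicate 2 (squares) lies far right of the other quiescent libraries in Ccng1, Trp53inp1 and Rrm2b.

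Cdkn1a was again higher: it measured 112, 106, 106 and 121 CPM in proliferating and 174, 157, 173 and 174 CPM in quiescent libraries. The groups did not overlap, and the rise on the log2 scale was 0.61 (SE 0.056, adjusted p = 8.22e-08). Ak1 and Ephx1 rose as well, from 126 ± 0.785 CPM (SD, n = 4) to 193 ± 10.4 CPM (SD, n = 4), a log2 fold change of 0.63 (adjusted p = 1.28e-08) and from 485 ± 8.15 CPM (SD, n = 4) to 581 ± 31.0 CPM (SD, n = 4), a log2 fold change of 0.27 (adjusted p = 4.7e-05). Phlda3 rose by 0.22 (SE 0.071) and lost its call with library size alone. Ccng1 and Trp53inp1 rose with a wide spread: Ccng1 had 13.6, 8.80, 11.6 and 7.42 CPM in proliferating and 24.4, 39.5, 19.2 and 23.2 CPM in quiescent libraries, and quiescent replicate 2 was far above the rest. On the log2 scale its rise was 1.38 (SE 0.27, adjusted p = 0.0018) with that library and 1.20 (SE 0.17, adjusted p = 1.93e-05) without it. Trp53inp1 had 7.78, 4.34, 5.07 and 5.33 CPM in proliferating and 9.63, 22.2, 8.41 and 10.1 CPM in quiescent libraries, with 1.19 (SE 0.34, adjusted p = 0.0115) and, without replicate 2, 0.83 (SE 0.20, adjusted p = 0.00113). Rrm2b was near 1 CPM, with 1.58, 0.445, 1.19 and 0.695 CPM against 1.12, 4.30, 2.26 and 2.36 CPM. Its groups overlapped (1.38, SE 0.44, adjusted p = 0.0116), and it was not called with limma on log2(TPM + 1) or with the replicate number as a block. Without quiescent replicate 2 its log2 fold change was 1.05 (SE 0.43, adjusted p = 0.0388).

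Trp53 was lower in quiescent cells too, with 163, 164, 160.1 and 163 CPM in proliferating and 62.9, 65.3, 65.0 and 67.5 CPM in quiescent libraries. The groups did not overlap, and the log2 difference was -1.31 (SE 0.048, adjusted p = 1.21e-12). Btg2 fell most of all members, from 87.9, 92.3, 93.2 and 99.1 CPM to 12.8, 8.71, 14.9 and 12.3 CPM, a log2 fold change of -2.94 (SE 0.11, adjusted p = 1.08e-11). Pidd1 had 16.0, 15.0, 15.8 and 16.6 CPM in proliferating and 4.01, 3.83, 5.34 and 4.99 CPM in quiescent libraries, also fully separated (-1.79, SE 0.15, adjusted p = 2.97e-08). The kinase genes Plk2 and Plk3 fell too, with log2 fold changes of -1.25 (SE 0.073) and -1.29 (SE 0.17). The glutaminase gene Gls2 was scarce, at 2.58 ± 0.367 CPM (SD, n = 4) and 0.866 ± 0.187 CPM (SD, n = 4), with a log2 fold change of -1.57 (SE 0.31) that was not called with limma on log2(TPM + 1). It held 20 to 27 counts in each proliferating library and 5 to 7 in each quiescent one. It thus passed the filter on low counts only through the proliferating group, where it was high, and its call is no independent support for a fall. Gls2 is included in the counts of lower, separated and at least 2-fold genes above. Smaller falls were measured for Bbc3 (-0.76, SE 0.16), Aen (-0.68, SE 0.057), Rps27l (-0.43, SE 0.056), Ppm1d (-0.38, SE 0.13) and Sesn2 (-0.22, SE 0.056). Without quiescent replicate 2, neither Ppm1d (-0.25, SE 0.13, adjusted p = 0.0995) nor Sesn2 (-0.11, SE 0.057, adjusted p = 0.0948) was called. Ppm1d was also not called with DESeq2 or without proliferating replicate 4 or quiescent replicate 1 or 3, and its log2 fold change ran from -0.52 to -0.25 over 18 alternatives. Sesn2 was also not called without quiescent replicate 4 or with the GC trend removed (-0.067, SE 0.046, adjusted p = 0.215).

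Of the 16 genes not called, Mdm2 had 16.4, 17.9, 16.4 and 16.5 CPM in proliferating and 12.5, 20.0, 13.9 and 14.7 CPM in quiescent libraries. Quiescent replicate 2 lay above all others and the groups overlapped (-0.11, SE 0.14, adjusted p = 0.482). Bax and Ei24 had log2 fold changes of -0.025 (SE 0.049) and 0.028 (SE 0.044). Their small differences turned to calls under other scalings: once each library's GC trend was taken out, Bax was higher (0.19, adjusted p = 0.000521), and Ei24 was lower with library size alone (-0.11, adjusted p = 0.0151). Dcxr, the most changed member in the KO, had 21.1, 21.7, 19.8 and 18.4 CPM and 22.5, 19.5, 25.2 and 23.3 CPM (0.17, SE 0.10, adjusted p = 0.173).

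**Figure D4:**
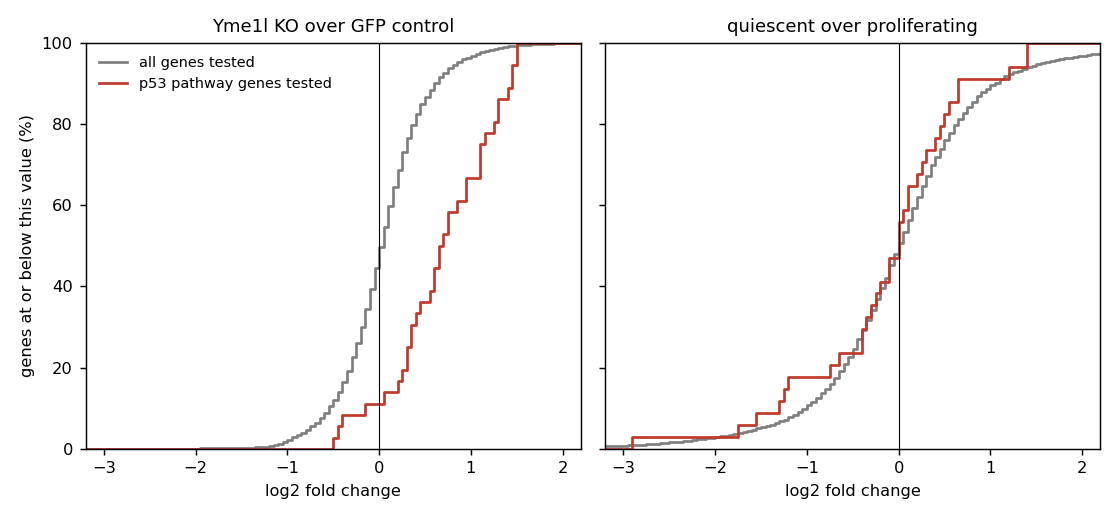
Cumulative distribution of the log2 fold change over p53 pathway genes tested (red) and all genes tested (grey), for Yme1l KO over GFP control (left) and quiescent over proliferating (right). The red curve lies right of the grey one in the KO, with medians of 0.65 and 0.0023, and follows it in quiescent cells, with medians of -0.020 and -0.014.

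Both comparisons set cells against cells growing in FGF and EGF, and they share no library. The KO effect minus the quiescence effect was therefore tested per gene in 1 fit of all 14 libraries. Of the 37 members tested, 22 were called, where 38.9% of all 13580 genes tested were. The effect was higher in the KO for 21 of the 22 and lower for Rrm2b, while over all genes 2848 were higher and 2441 lower. The 37 include Pmaip1, Polk and Gdf15, too low to be tested in quiescent against proliferating cells, and Gls2, too low in the KO comparison. For these genes 1 of the 2 effects was hardly measured. Pmaip1 is among the 21 (1.22, SE 0.47, adjusted p = 0.0458), and its call says little about quiescence. With RLE scaling, which gave 2229 higher and 3094 lower over all genes, 20 members were higher and 1 lower. With library size alone, which gave 4173 higher and 1732 lower and moved the median of all genes to 0.16, 26 members were higher and none lower. Rrm2b (log2 difference -1.14, SE 0.41, adjusted p = 0.0322) was not called with library size alone, with the GC trend removed, or when proliferating replicate 2 or 5, quiescent replicate 2, GFP replicate 1 or 3 or KO replicate 2 was left out. The median log2 difference was 0.69. Of the 33 genes tested in both tables, 6 (Btg2, Plk2, Bbc3, Aen, Pidd1 and Sesn2) were higher in the KO and lower in quiescent cells, where 3.91% of all 11477 genes were. The lower calls of Bbc3 and Sesn2 in quiescent cells were not made in the authors' deposited table. Another 7 (Cdkn1a, Ccng1, Phlda3, Trp53inp1, Rrm2b, Ak1 and Ephx1) were higher in both, where 14.8% of all genes were. A group of 15 rose in the KO and was not called in quiescent cells, and the share of all genes that did so was not counted. Among them Mdm2, Mdm4, Apaf1, Eda2r and Ercc5 had a mean CPM at least 4-fold lower in proliferating than in GFP control libraries. Quiescent replicate 2 was the highest quiescent library for each of these genes. They were thus measured less precisely there, and a missing call does not show that a gene did not respond. Trp53 was lower in both, as were 18.4% of all genes.

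**Figure D5:**
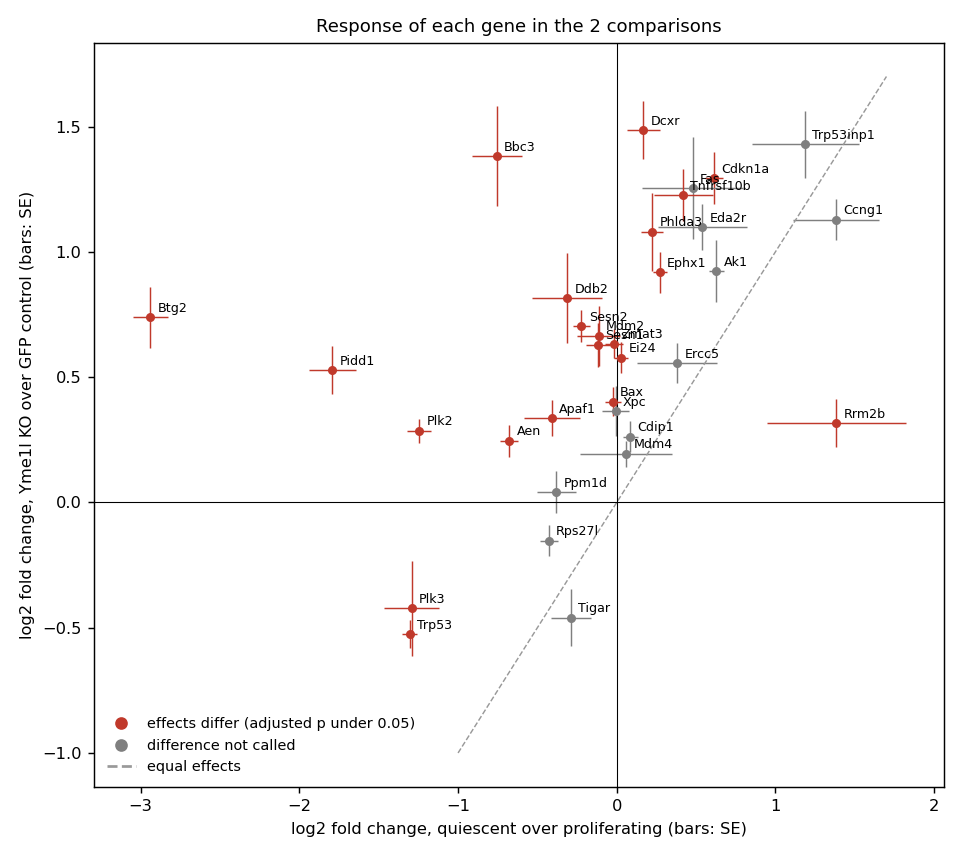
Log2 fold change of the 33 p53 pathway genes tested in both tables: quiescent over proliferating (x axis) against Yme1l KO over GFP control (y axis), bars showing SE, red where the effects differ at an adjusted p under 0.05. Most points lie above the dashed line of equal effects, and Btg2, Pidd1, Plk2, Aen, Bbc3 and Sesn2 lie in the upper left part.

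The difference was largest for Btg2, at 3.63 (SE 0.19, adjusted p = 1.19e-11) on the log2 scale. Pidd1 followed with 2.28 (SE 0.17, adjusted p = 1.37e-09) and Bbc3 with 2.10 (SE 0.25, adjusted p = 1.09e-06). The comparisons went opposite ways for all 3: each gene was above its controls in all 3 KO libraries and below its controls in all 4 quiescent libraries. For Cdkn1a, which rose in both, the KO effect was larger by 0.63 (SE 0.11, adjusted p = 0.000194). For Ccng1 (-0.31, SE 0.30, adjusted p = 0.449), Trp53inp1 (0.17, SE 0.41, adjusted p = 0.785) and Ak1 (0.24, SE 0.12, adjusted p = 0.113) a difference was not called. Trp53 fell less in the KO than in quiescent cells, by 0.73 (SE 0.081, adjusted p = 3.58e-07). Across the 33 genes the log2 fold changes of the comparisons had Pearson r = 0.42 and Spearman rho = 0.54, beside 0.49 and 0.50 over all 11477 genes. These describe genes, which are not independent replicates.

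Other genes of the pathway were read from lists, whose shares are set against all genes tested: 25.4% higher and 26.2% lower in the KO, 29.9% higher and 35.5% lower in quiescent cells. Of 38 tested further p53 targets, 20 rose (52.6%) and 4 fell (10.5%) in the KO, with a median log2 fold change of 0.35. In quiescent cells 14 rose (36.8%) and 15 fell (39.5%), with a median of -0.19 and shares near those of all genes. In the KO the smallest adjusted p-values were those of Trp53i11 (0.58, SE 0.045), Sulf2 (0.57, SE 0.051) and the long noncoding RNA Trp53cor1, known as lincRNA-p21 (1.03, SE 0.096). Trp53i11 fell in quiescent cells, with a log2 fold change of -2.92 (SE 0.06). Of 27 tested regulators upstream of or beside p53, 5 rose (18.5%) and 10 fell (37.0%) in the KO, with a median of -0.16. The methyltransferase gene Prmt5 (-0.75, SE 0.076), the checkpoint kinase gene Chek2 (-0.88, SE 0.12) and Rpl11 (-0.36, SE 0.056), whose ribosomal protein binds Mdm2, were among those that fell. In quiescent cells 6 of 26 regulators rose (23.1%) and 9 fell (34.6%), shares near those of all genes, with a median of -0.071.

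Cell cycle genes known to be repressed through p21 and the DREAM complex fell together. In the KO all 30 were lower, against 26.2% of all genes tested (median -1.05), and the smallest adjusted p-values were those of Aurkb (-1.19, SE 0.11), Mcm6 (-0.97, SE 0.081) and Mybl2 (-1.15, SE 0.11). In quiescent cells 29 of 30 were lower, against 35.5% (median -2.38), with -3.28 (SE 0.055) for Mcm2. Of 21 core genes of mitochondrial apoptosis, 11 rose (52.4%) and 4 fell (19.0%) in the KO, with a median of 0.20. In quiescent cells 7 rose (33.3%) and 9 fell (42.9%), near the shares of all genes, with a median of -0.21. The antiapoptotic gene Bcl2l1 rose in both, by 0.53 (SE 0.064) and 0.49 (SE 0.049).

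Sesn2 and Gdf15 also belong to the integrated stress response, whose transcription factor is Atf4. In the KO 6 of 22 tested genes of that response rose (27.3%) and 13 fell (59.1%), with a median of -0.45, beside 25.4% and 26.2% of all genes tested. Sesn2 and Gdf15 were among the 6, while Atf4 itself fell (-0.43, SE 0.052). In quiescent cells 5 of 21 rose (23.8%) and 13 fell (61.9%), with a median of -0.84, beside 29.9% and 35.5%.

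Transcript usage was read for Cdkn1a, Trp53, Mdm2 and Mdm4 as the share of the gene's counts carried by the most abundant transcript. None of 8 shares passed Benjamini-Hochberg adjustment over the 8. At an unadjusted p under 0.05 there was none either, and 3 libraries against 3 cannot go below 0.1. The share of Mdm2-201, a protein-coding transcript, was 88.4%, 91.2% and 91.2% in the GFP control and 82.0%, 80.7% and 87.0% in the KO (two-sided exact permutation p = 0.1, adjusted p = 0.4). The groups did not overlap, and this p is the smallest that the design can give. For Trp53 the quantification gave Trp53-201 none of the counts in GFP replicate 1 and in KO replicates 2 and 3, and 83.7% to 87.0% in the other virus-treated libraries, where Trp53-203 had none. The gene's summed counts do not depend on that split.

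The authors' deposited table called 28 members higher and 2 lower for the KO, and 30 of the 33 calls above were shared with the same sign. Aen, Cdip1 and Rrm2b were not called in the authors' deposited table. For quiescent cells the authors' deposited table called 6 higher and 7 lower, with 13 of 18 calls shared. The shares of all genes called in the authors' deposited tables were not counted, so these member counts have no background beside them. Bbc3, Gls2, Ppm1d, Rrm2b and Sesn2 were not called in the authors' deposited table, where Bbc3 had a log2 fold change of -0.52 (adjusted p = 0.0559) and Sesn2 one of -0.16 (adjusted p = 0.0728). Cdkn1a had a log2 fold change of 1.27 (adjusted p = 1e-36) in the KO and 0.66 (adjusted p = 9.75e-17) in quiescent cells in the authors' deposited table.

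Levels were tested only within a table, because the tables were quantified separately. Set side by side, 11 members, among them Gdf15, Pmaip1, Ccng1 and Mdm2, had a mean CPM at least 4-fold lower in proliferating than in GFP control libraries. The median GC content of their transcripts was 42.1%, and that of the other 27 members 51.6%. Virus treatment, library source, quantification and GC content cannot be told apart in that contrast.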

How the data were processed

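Poly-A RNA of 14 NSPC libraries was sequenced with a stranded kit, per the labels' protocols. The authors deposited salmon tables of estimated counts (expected counts), length-scaled counts, TPM, and transcript counts and TPM, with DESeq2 1.30.1 tests in R 4.0.3 and build GRCm39 per the submitters' processing notes. Their deposited test tables hold log2 fold changes and adjusted p-values. The salmon version and annotation are not given in the sources used here. Estimated counts were rounded and tested over all genes of a table with edgeR 4.0.16 and R 4.3.3: TMM scaling, the filterByExpr filter, and the robust quasi-likelihood F test. The call threshold was a p-value under 0.05 after Benjamini-Hochberg adjustment. SE was derived as |log2 fold change| divided by the root of F. On simulated data the share of false calls came out above the nominal level in both comparisons, so calls with an adjusted p just under the threshold are the least certain. GC content and transcript names came from an earlier annotation by ID. The members and lists were chosen with earlier results of these data known. All members may be named, and of each other list at most 3 genes by smallest adjusted p, besides markers without counts. Alternatives covered scaling, filters, DESeq2 1.42.0, limma 3.58.1 on log2(TPM + 1), the samples fitted and a GC correction chosen after seeing the data. The number of counts limits the precision of scarce genes such as Fas.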

Additional observations from a re-analysis of the deposited data

Results flagged for a closer look

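Of 71 pairs of member and group of 4 libraries examined, 7 had 1 library far from the other 3, measured by its gap to the nearest value against the whole range. Chance alone gives about 1 such pair in 20. Of the 7, 4 were in quiescent replicate 2. There Trp53inp1 was high at 22.2 CPM against 8.41 to 10.1 CPM in the other quiescent libraries, and Ercc5 at 5.81 CPM against 4.50 to 4.58 CPM. In the same library Cdkn1a was low at 157 CPM against 173 to 174 CPM, and Ak1 at 177 CPM against 197 to 199 CPM. In proliferating replicate 2 Mdm2 was high at 17.9 CPM against 16.4 to 16.5 CPM. In proliferating replicate 4 Ppm1d was high at 18.5 CPM against 14.8 to 15.4 CPM. Perp was at 0.540 CPM in that library against 0.105 to 0.116 CPM, a level too low for a test.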

How the results depend on the processing

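With a fold of at least 2 required, 12 of 36 members were called in the KO, against 5.23% of all genes tested, and 9 of 34 in quiescent cells, against 20.7%. Leaving out 1 library gave 32 to 34 calls in the KO, 18 to 21 in quiescent cells and 20 to 23 for the difference of effects. Over all genes those fits called 5571 to 6388 of 12816 to 12849 tested in the KO. They called 7503 to 8002 of 12350 to 12439 in quiescent cells, and 4691 to 5409 of 13527 to 13810 for the difference. No direction of a called member turned in the KO under any of 16 alternatives. In quiescent cells 2 uncalled members passed the threshold with the other sign: Bax with the GC trend removed (0.19) and Ei24 with library size alone (-0.11); the cause was not tested. Rps27l gained a call in the KO under 6 alternatives, Pmaip1 lost its call for the difference under 11 of 21, and Bax lost it with the GC trend removed. The replicate block pairs libraries that share only a number (correlations of deviations of 0.0021, -0.047 and -0.0058 in the KO table and -0.24, -0.35 and -0.015 in the other). With it 34 of 36 members were called in the KO, beside 6252 of all 12625 genes tested. In quiescent cells it gave 17 of 34 members, beside 6553 of all 12245 genes tested, a share near that of the members. Of all genes in quiescent cells, 3664 were higher and 4346 lower, against 2823 and 5219 with library size alone. Perp and Gls2 in the KO table, and Pmaip1, Polk, Gdf15 and Perp in the other, had too few counts for a test. Removal of the GC trend was chosen after seeing the data.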
